A study of Saccharomyces cerevisiae with 6 samples.

Results

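The genes named ATG followed by a number encode the autophagy machinery of budding yeast, Saccharomyces cerevisiae, and 28 of the 5795 genes in the deposited table carry such a name. They were taken by name alone and sorted by step into a kinase complex (4 genes), membrane supply and lipid transfer (3), the autophagy-specific subunit of a lipid kinase (1), ubiquitin-like conjugation (8), breakdown and efflux in the vacuole (2), the cytoplasm-to-vacuole targeting (Cvt) pathway (6) and selective removal of organelles (4). Sequencing of total RNA after rRNA removal, with a kit that keeps the strand, gave 6 libraries in 3 groups of 2 biological replicates. These were gat1Δ cells grown with proline, dal80Δ cells grown with glutamine, and gat1Δ cells grown with glutamine. Gat1 is a GATA-family activator of nitrogen catabolic genes, and Dal80 a GATA-family repressor that acts on many of them. Proline is a poor nitrogen source and glutamine a preferred one. Every library carried 1 of the 2 deletions; wild-type cells, and dal80Δ cells in proline, were not analysed here. Proline was therefore compared with glutamine within gat1Δ cells alone, and a difference between the strains in glutamine cannot be assigned to either deletion. Both comparisons use the same gat1Δ glutamine libraries.

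Autophagy wraps cytoplasm in a double membrane and delivers it to the vacuole, the yeast lysosome, where hydrolases degrade it. A kinase complex starts the process when TOR signalling falls, vesicles and a lipid transfer protein supply the membrane, and a ubiquitin-like protein, Atg8, is attached to its lipids. In growing cells much of the same machinery runs the Cvt pathway, which carries precursors of vacuolar hydrolases, and receptors on mitochondria, peroxisomes or the endoplasmic reticulum direct it to those organelles. Several ATG genes are known to be transcribed more strongly under nitrogen starvation, with the Ume6 repressor acting on ATG8.

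Depth differed between libraries. Recovered reads over all features came to 17009715 and 28842495 in gat1Δ proline, 34718641 and 30172764 in dal80Δ glutamine, and 17480765 and 27217650 in gat1Δ glutamine, in the order of replicates 1 and 2, which holds for every pair of values given here. The authors had brought each library to nearly the same total over genes, and the values printed are these scaled reads, or scaled reads per kilobase (kb) where genes are compared. On that scaling the median of 5594 tested genes lay 0.50 log2 units above gat1Δ glutamine in gat1Δ proline and 0.15 below it in dal80Δ (-0.15). Rescaling by the trimmed mean of M values (TMM), which takes most genes as unchanged, left medians of 0.06 and -0.01. Counts of ATG genes called with all 6 libraries are therefore given on both. Statements that the scaled reads of groups overlap or lie apart, and their counts, use the authors' scaling alone. GAT1 had 3.0 and 1.23 scaled reads in gat1Δ proline, 710.3 and 564 in dal80Δ and 1.75 and 1.11 in gat1Δ glutamine. DAL80 had 195 and 304 in gat1Δ proline, 0.443 and 0 in dal80Δ and 1.75 and 0.556 in gat1Δ glutamine, where a count of 0 in dal80Δ replicate 2 allows up to 1.59 scaled reads. DAL80 was thus near 0 in every glutamine library and does not tell the strains apart there, while GAT1 does. Markers of mating type differed as well. The 5 a-specific markers summed to 5324 and 4270.6 scaled reads in gat1Δ proline, 26271 and 24413 in dal80Δ and 187 and 167 in gat1Δ glutamine. The 4 α-specific markers summed to 84262 and 89581, 448 and 433, and 36055 and 36270 in the same groups. The strain comparison is therefore also a comparison of cells with a and α transcripts, and these cannot be told apart. On the authors' scaling both sums were also higher in each gat1Δ proline library than in each gat1Δ glutamine library. Most of the α-specific sum in gat1Δ proline was MF(ALPHA)1, which stayed 1.38 log2 units higher after TMM. MF(ALPHA)2, STE3 and SAG1 were at -0.29, -0.003 and 0.02 after TMM and were not called (limma, adjusted p under 0.05). Every a-specific marker stayed higher after TMM, the least being STE6 at 1.39. The a-specific markers and MF(ALPHA)1 thus move with the proline comparison too, and their part in its values was not tested.

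Upstream DNA is shown for the 5 genes with the largest change among those that passed the test in proline, for ATG8, whose repeat of the Ume6 core site sits in this window, and for the paired receptor genes ATG19 and ATG34. Each window is the R64 reference sequence, on the strand of the gene, from 400 to 101 bases before its start codon, read 5′ to 3′, with capitals for a match on either strand to GATAAG (the site of Gat1, Dal80 and their relatives), GGCGGC (the Ume6 core site URS1), TGACTC (Gcn4) or AGGGG (the stress response element).
ATG1, chr7:159665-159964, plus strand: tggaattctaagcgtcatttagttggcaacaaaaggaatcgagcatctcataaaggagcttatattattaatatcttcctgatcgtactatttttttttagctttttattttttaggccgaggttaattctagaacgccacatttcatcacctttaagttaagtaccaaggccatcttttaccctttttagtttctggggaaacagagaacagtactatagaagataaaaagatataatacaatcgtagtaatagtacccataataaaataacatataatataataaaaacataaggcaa
ATG13, chr16:906818-907117, plus strand: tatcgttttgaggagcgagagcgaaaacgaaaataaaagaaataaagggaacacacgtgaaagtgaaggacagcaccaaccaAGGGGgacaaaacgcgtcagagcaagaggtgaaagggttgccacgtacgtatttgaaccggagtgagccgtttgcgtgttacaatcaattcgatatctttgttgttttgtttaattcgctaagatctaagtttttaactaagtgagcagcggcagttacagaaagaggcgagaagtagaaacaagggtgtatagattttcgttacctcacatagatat
ATG12, chr2:657432-657731, plus strand: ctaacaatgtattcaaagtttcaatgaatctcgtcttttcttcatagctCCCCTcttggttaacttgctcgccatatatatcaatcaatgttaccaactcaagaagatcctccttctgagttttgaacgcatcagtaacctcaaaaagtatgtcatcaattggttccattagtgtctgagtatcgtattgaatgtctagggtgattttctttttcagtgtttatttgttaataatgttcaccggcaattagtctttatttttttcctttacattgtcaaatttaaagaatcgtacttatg
ATG33, chr12:839921-840220, plus strand: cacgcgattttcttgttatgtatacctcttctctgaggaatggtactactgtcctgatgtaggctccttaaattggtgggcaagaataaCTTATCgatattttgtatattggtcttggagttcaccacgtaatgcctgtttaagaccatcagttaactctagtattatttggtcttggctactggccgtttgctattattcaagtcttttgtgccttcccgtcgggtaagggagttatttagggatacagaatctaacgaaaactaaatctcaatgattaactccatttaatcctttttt
ATG32, chr9:75874-76173, minus strand: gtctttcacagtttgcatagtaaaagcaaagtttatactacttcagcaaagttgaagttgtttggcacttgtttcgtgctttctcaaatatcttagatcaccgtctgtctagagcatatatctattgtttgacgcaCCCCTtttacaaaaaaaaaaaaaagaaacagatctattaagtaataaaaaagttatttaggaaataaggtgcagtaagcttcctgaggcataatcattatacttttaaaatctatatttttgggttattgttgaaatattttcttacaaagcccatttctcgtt
ATG8, chr2:80832-81131, minus strand: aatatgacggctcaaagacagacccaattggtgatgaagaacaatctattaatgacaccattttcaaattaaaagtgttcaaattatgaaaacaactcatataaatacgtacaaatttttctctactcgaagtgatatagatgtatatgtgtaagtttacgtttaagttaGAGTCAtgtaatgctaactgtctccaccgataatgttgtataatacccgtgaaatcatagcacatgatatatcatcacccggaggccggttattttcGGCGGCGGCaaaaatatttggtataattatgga
ATG19, chr15:168327-168626, plus strand: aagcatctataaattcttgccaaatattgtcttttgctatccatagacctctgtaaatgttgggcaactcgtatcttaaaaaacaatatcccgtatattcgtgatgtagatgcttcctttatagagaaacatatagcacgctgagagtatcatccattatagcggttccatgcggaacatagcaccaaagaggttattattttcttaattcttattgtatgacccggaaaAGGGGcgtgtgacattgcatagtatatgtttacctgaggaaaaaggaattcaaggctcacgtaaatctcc
ATG34, chr15:165314-165613, plus strand: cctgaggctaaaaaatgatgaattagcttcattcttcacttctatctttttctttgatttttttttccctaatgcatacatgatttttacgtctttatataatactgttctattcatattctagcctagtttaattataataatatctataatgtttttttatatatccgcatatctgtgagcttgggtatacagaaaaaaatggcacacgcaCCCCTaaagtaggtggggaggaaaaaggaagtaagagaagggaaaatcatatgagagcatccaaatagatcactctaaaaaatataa
No match to the 4 motifs lies in the ATG1 window, and a single GATAAG, on the opposite strand 311 bases before the start codon, lies in that of ATG33. The ATG8 window holds 2 overlapping copies of GGCGGC, 133 and 130 bases before the start codon, and TGACTC on the opposite strand at 230. ATG13, ATG12, ATG32, ATG19 and ATG34 hold AGGGG on one strand or the other at 318, 351, 264, 170 and 187 bases before the start codon. Of these windows, 169 bases of that of ATG12 lie within the neighbour YBP1, 89 of that of ATG8 within ILS1 and 18 of that of ATG34 within PHM7. Over all 28 members GATAAG occurred in 4 windows (14.3%; ATG14, ATG15, ATG18 and ATG33), against 14.0% of 5771 windows of the same length and place. GGCGGC occurred in 1 window (3.57%, against 6.17% of all), TGACTC in 5 (17.9%, against 8.63%) and AGGGG in 13 (46.4%, against 23.9%). A match is a match of letters only, and windows without one may hold sites outside these 300 bases or with other letters.

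The first comparison asked which transcripts changed when gat1Δ cells used proline in place of glutamine. On the authors' scaling 18 of the 28 ATG genes were higher in proline, 0 were lower and 10 did not pass (limma, adjusted p under 0.05, here and below unless another test is named). At 64.3% the higher share stands beside 56.5% of all tested genes, and the 0 lower beside 15.1%. At an unadjusted p under 0.05 the counts were again 18 and 0, beside 4129 of 5594 tested genes in either direction. After TMM these unadjusted counts were 10 and 3, beside 3766 of the 5594. On TMM scaling 10 were higher (35.7%, against 33.9% of all genes) and 3 lower (10.7%, against 29.8%). edgeR called 9 higher and 3 lower, against 33.5% and 30.2% of all genes. The median change of the 28 was 0.50 on the authors' scaling and 0.08 after TMM, beside 0.50 and 0.06 for all genes. The share of higher members was thus close to that of all genes, and the family did not move as a block. On the authors' scaling the reads of both proline libraries lay above both glutamine libraries for 21 members (75%, against 65.9% of all genes). They lay below both for 2 (7.14%, against 20.6%). Within the family the change ran from 2.41 for ATG1 to -0.21 for ATG27.

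**Figure D1:**
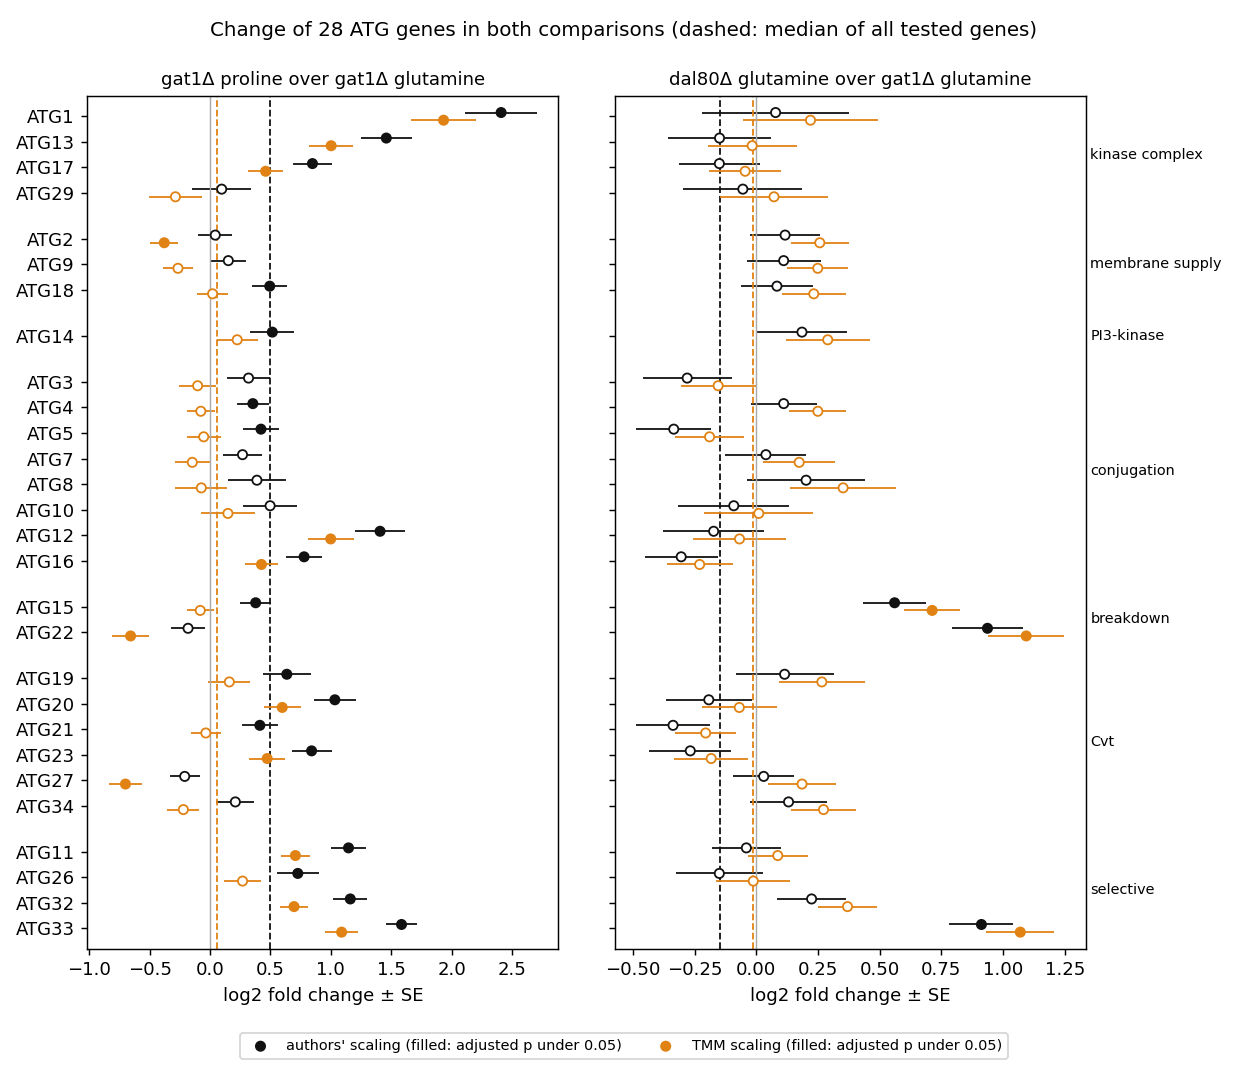
Change of each of the 28 ATG genes (rows, grouped by step) as log2 fold change ± SE, for gat1Δ proline over gat1Δ glutamine on the left and dal80Δ glutamine over gat1Δ glutamine on the right; black is the authors' scaling, orange TMM, filled points passed at an adjusted p under 0.05, and dashed lines are the medians of 5594 genes. ATG1 stands farthest right in proline at 2.41, and ATG22, ATG33 and ATG15 are the filled points in dal80Δ.

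In the kinase complex 3 of 4 genes rose in proline, on both scalings and by edgeR. This 75% stands beside 56.5% of all genes on the authors' scaling, 33.9% after TMM and 33.5% by edgeR. ATG1, the kinase itself, had 3559 and 1613 scaled reads in gat1Δ proline, against 434 and 371 in gat1Δ glutamine. Both proline libraries lay far above both glutamine libraries, but they also differed from each other by more than the glutamine replicates did. The log2 change was 2.41 ± 0.30 (SE; adjusted p = 0.000123) and 1.93 after TMM, and it was 1.85 without proline replicate 1 and 2.97 without proline replicate 2. By density ATG1 stood above 79.2% and 62.2% of all genes in proline, against 33.7% and 33.3% in glutamine, a rank that no scaling of a library alters.

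ATG13, the regulatory subunit that TOR phosphorylates, had 906 and 703 scaled reads in gat1Δ proline, against 326 and 202 in gat1Δ glutamine. The groups did not overlap, with a log2 change of 1.46 ± 0.21 (adjusted p = 0.000293) and 1.00 after TMM. ATG17, the scaffold of the complex in starved cells, had 138 and 126 in proline, against 71.8 and 50.6 in glutamine (0.85 ± 0.16, adjusted p = 0.00151; TMM 0.46, adjusted p = 0.0215). ATG29, its small partner, was the exception, with overlapping values of 64 and 45.9 in proline, against 66.5 and 36.7 in glutamine (0.10 ± 0.24, adjusted p = 0.731). It shares 24 bases with SET6 on the other strand, whose reads could be counted there only if strand was ignored in counting, and no label or header says whether it was. The third partner of that scaffold, ATG31, is listed under its other name CIS1. It had 180.0 and 153 scaled reads in proline, against 105 and 60.1 in glutamine, a change of 0.94 ± 0.22 (adjusted p = 0.00465) that missed the threshold after TMM at 0.49 (adjusted p = 0.0558).

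Of the 3 genes that supply and fill the membrane 1 was higher in proline on the authors' scaling, and after TMM 0 were higher and 1 lower (edgeR gave the same counts). The higher 33.3% stands beside 56.5% of all genes, and the lower 33.3% after TMM beside 29.8%. ATG2, the lipid transfer protein, had 637 and 649 scaled reads in gat1Δ proline, against 688 and 559.6 in gat1Δ glutamine, and ATG9, the scramblase of the membrane vesicles, had 391 and 369, against 380.0 and 295. Both sets overlapped, with changes of 0.04 ± 0.14 (adjusted p = 0.793) and 0.15 ± 0.15 (adjusted p = 0.382). After TMM ATG2 was lower in proline at -0.38 (adjusted p = 0.0196). ATG18, which binds the lipid PI3P and partners Atg2, had 736 and 580.2 in proline, against 459 and 449 in glutamine (0.49 ± 0.15, adjusted p = 0.0136), and 0.02 after TMM. Its call was lost without proline replicate 1 (adjusted p = 0.0886).

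ATG14, the subunit that gives the PI3-kinase Vps34 its role in autophagy, was the lowest of all members per kb in proline. It had 48.0 and 38.0 scaled reads in gat1Δ proline, against 30.6 and 16.1 in gat1Δ glutamine (0.52 ± 0.18, adjusted p = 0.0302). The groups did not overlap on the authors' scaling. After TMM the change missed the threshold (0.22, adjusted p = 0.272). On the authors' scaling it was 0.41 without proline replicate 1 and 0.29 without glutamine replicate 2. Of 4 general PI3-kinase and PI3P genes VPS34, HSV2 and VPS30 were higher on the authors' scaling (75%, against 56.5% of all genes). By limma after TMM 0 were higher, against 33.9% of all genes. The kinase VPS34 was at 0.81 ± 0.16 (TMM 0.35, adjusted p = 0.0515, and edgeR 0.39, adjusted p = 0.0335). The other autophagy-specific subunit, ATG38, is listed as YLR211C. It had 291 and 168 scaled reads in proline, against 46.4 and 32.3 in glutamine, without overlap, and its change of 2.10 ± 0.25 (adjusted p = 0.000114) passed after TMM at 1.66.

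**Figure D2:**
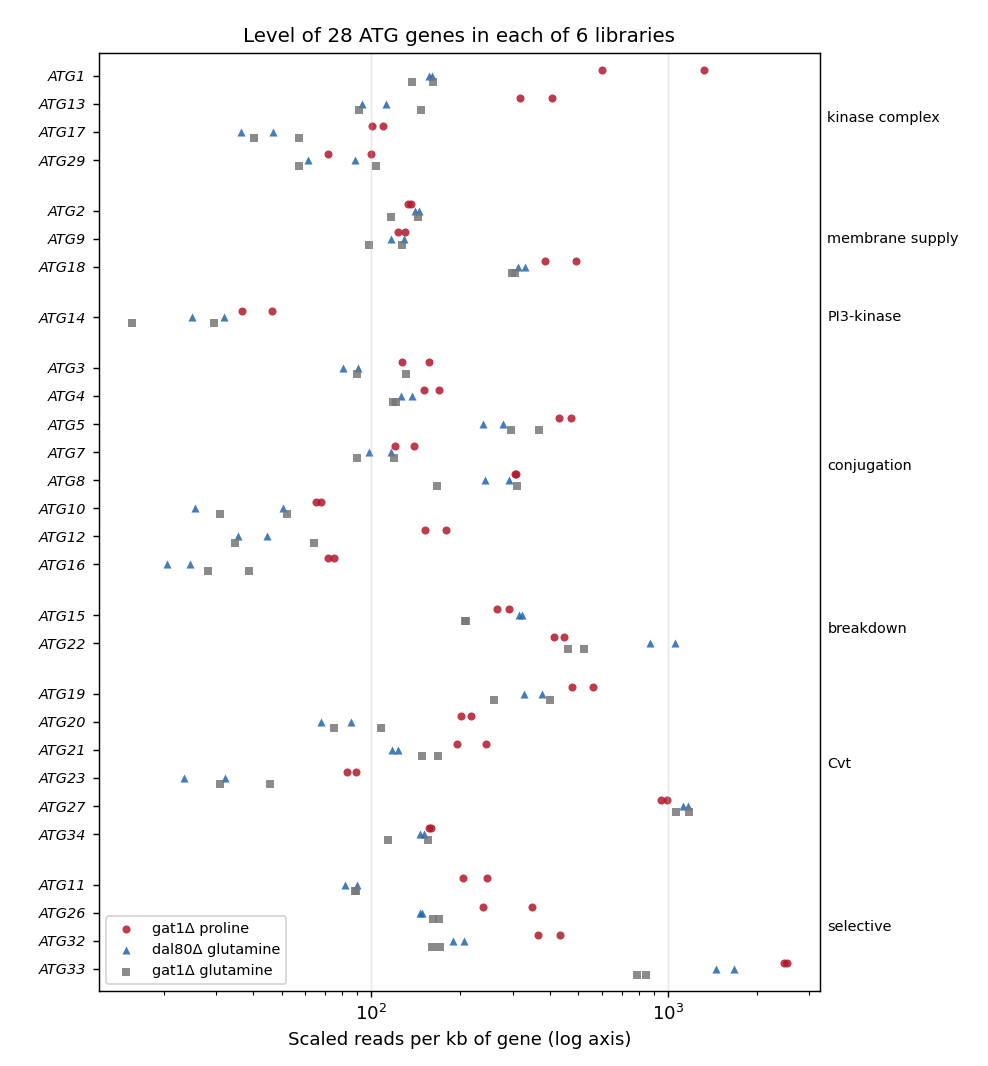
Level of the 28 ATG genes in each of the 6 libraries as scaled reads per kb of gene on a log axis, with red circles for gat1Δ proline, blue triangles for dal80Δ glutamine and grey squares for gat1Δ glutamine, and genes grouped by step down the page. ATG33 reaches 2466 and 2531 in proline, while ATG14 lies between 15.6 and 46.4 in all libraries.

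The conjugation genes divided. In the branch that links ATG12 to ATG5, ATG12 itself, a ubiquitin-like protein, had 85 and 100.5 scaled reads in gat1Δ proline, against 35.9 and 19.5 in gat1Δ glutamine. The groups lay apart, with a change of 1.41 ± 0.20 (adjusted p = 0.000305) that was 1.00 after TMM. ATG16, which holds the ATG12 and ATG5 product together, had 34.0 and 32.5 in proline, against 17.5 and 12.8 in glutamine, resting on 20 to 53 recovered reads in those libraries. It passed on both scalings (0.78 ± 0.15, adjusted p = 0.00139; TMM 0.43, adjusted p = 0.0212), but not by edgeR (0.65, adjusted p = 0.0927). ATG5, the acceptor of ATG12, had 380.0 and 419 in proline, against 326 and 263 in glutamine (0.42 ± 0.15, adjusted p = 0.0325; TMM -0.05). The ratio of ATG12 to ATG5 density, which no library scaling alters, was 0.353 and 0.378 in proline, against 0.174 and 0.117 in glutamine. ATG10, the enzyme that joins the pair, had 33.0 and 34.3, against 26.3 and 15.6 (0.50 ± 0.22, adjusted p = 0.0739), and passed when glutamine replicate 1 (adjusted p = 0.0230) or either dal80Δ library (0.0433 and 0.0432) was left out.

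ATG8, the ubiquitin-like protein whose window is printed above, did not pass. It had 108 and 109 scaled reads in gat1Δ proline, against 110.3 and 59.0 in gat1Δ glutamine, from 106 to 178 recovered reads per library. The proline replicates were alike while the glutamine replicates lay on either side of the dal80Δ values, and the change of 0.39 ± 0.24 (adjusted p = 0.170) was -0.07 after TMM. Without glutamine replicate 1 it was 0.80 and passed (adjusted p = 0.00344), and without glutamine replicate 2 it was -0.02, so that 1 library decided the value. By density ATG8 stood above 37.8% and 40.3% of all genes in proline, against 53.8% and 38.2% in glutamine. The ratio of ATG1 to ATG8 density was 4.33 and 1.94 in proline, against 0.517 and 0.827 in glutamine.

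Of the enzymes that process ATG8 only ATG4 was called, and not after TMM. ATG7, the activating enzyme of both branches, had 228 and 263 scaled reads in gat1Δ proline, against 226 and 169.7 in gat1Δ glutamine (0.27 ± 0.16, adjusted p = 0.167). ATG3, which transfers ATG8 to lipid, had 146 and 119, against 123 and 83.4 (0.32 ± 0.18, adjusted p = 0.142), and passed only without glutamine replicate 1 (0.55, adjusted p = 0.0226). ATG4, the protease that trims and frees ATG8, had 252 and 224, against 180.4 and 176 (0.35 ± 0.13, adjusted p = 0.0393; TMM -0.08). The ATG4 and ATG5 calls were each lost on leaving out any of 5 of the 6 libraries, with adjusted p up to 0.154 and 0.182; ATG4 kept its call without proline replicate 2 and ATG5 without glutamine replicate 1. Over the step 4 of 8 were higher on the authors' scaling, 2 after TMM (ATG12 and ATG16) and 1 by edgeR (ATG12). These shares of 50%, 25% and 12.5% stand beside 56.5%, 33.9% and 33.5% of all genes.

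Of the 2 genes that act in the vacuole 1, ATG15, was higher in proline on the authors' scaling, and after TMM 0 were higher and 1, ATG22, was lower. The higher 50% stands beside 56.5% of all genes, and the lower 50% after TMM beside 29.8%. ATG22, a vacuolar membrane protein that exports amino acids released by breakdown, had 656 and 709 scaled reads in gat1Δ proline, against 732 and 829 in gat1Δ glutamine. Both proline libraries were the lower ones; the change of -0.18 ± 0.14 did not pass (adjusted p = 0.276), and after TMM it was -0.66 and passed (adjusted p = 0.00534). ATG15, the lipase that opens autophagic bodies, had 455 and 415, against 327 and 325, with a change of 0.38 ± 0.13 (adjusted p = 0.0245) that turned to -0.08 after TMM and was lost on leaving out any library but proline replicate 2 (adjusted p up to 0.100). ATG42, a vacuolar carboxypeptidase listed as YBR139W, fell to 772 and 1232 in proline, against 2473 and 2247 in glutamine (-1.24 ± 0.20, adjusted p = 0.000568; TMM -1.73). Of the 4 other vacuolar hydrolases examined, PRC1 (-1.07 ± 0.20) and PEP4 (-0.78 ± 0.15), the carboxypeptidase Y and the protease that matures the others, were lower on both scalings, CPS1 was higher (0.99 ± 0.16), and PRB1 did not pass (0.16 ± 0.13). On either scaling 25% were higher and 50% lower. All genes stood at 56.5% and 15.1% on the authors' scaling, and 33.9% and 29.8% after TMM.

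**Figure D3:**
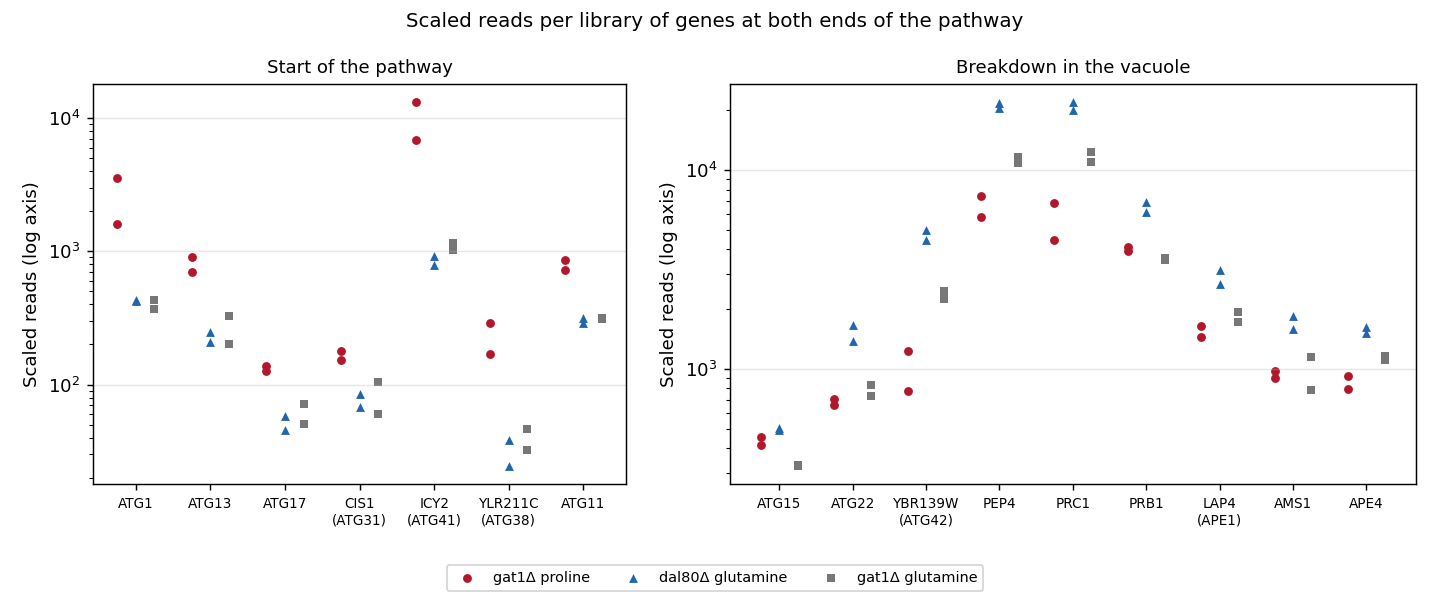
Scaled reads in each library, on a log axis, for genes that act at the start of the pathway (left) and in the vacuole or as its cargo (right), with red circles for gat1Δ proline, blue triangles for dal80Δ glutamine and grey squares for gat1Δ glutamine; values are comparable between groups of a gene and not between genes. ATG1 reads 3559 and 1613 in proline, against 434 and 371 in gat1Δ glutamine, while PEP4 reads 5843 and 7424 in proline, 20567 and 21760.1 in dal80Δ, and 11686 and 10938 in gat1Δ glutamine.

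Of the 6 Cvt genes 4 were higher in proline on the authors' scaling, and after TMM 2 were higher and 1 lower. The 66.7% stands beside 56.5% of all genes. After TMM 33.3% higher and 16.7% lower stand beside 33.9% and 29.8%. ATG20, a sorting nexin, had 418 and 388 scaled reads in gat1Δ proline, against 208 and 145 in gat1Δ glutamine (1.03 ± 0.17, adjusted p = 0.000701; TMM 0.60, adjusted p = 0.00780). ATG23, which helps move Atg9 vesicles, had 121 and 113, against 62.2 and 42.3 (0.84 ± 0.17, adjusted p = 0.00169; TMM 0.47, adjusted p = 0.0219). Neither gene's groups overlapped. ATG27, a membrane protein that travels with Atg9 and Atg23, went the other way, with 809 and 773 in proline, against 873 and 964 in glutamine. That change of -0.21 ± 0.12 passed only after TMM, at -0.70 (adjusted p = 0.00214).

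Of the cargo receptors of the Cvt pathway ATG19 passed on the authors' scaling and ATG34 did not, and neither passed after TMM; the difference between their changes was not tested. ATG19, the receptor of growing cells, had 697 and 592 scaled reads in gat1Δ proline, against 501 and 324 in gat1Δ glutamine (0.64 ± 0.20, adjusted p = 0.0175; TMM 0.16, adjusted p = 0.445), and its call was lost without proline replicate 1 (adjusted p = 0.101) or glutamine replicate 2 (adjusted p = 0.122). ATG34, the related receptor known to act in starvation, had 194 and 198, against 193 and 141 (0.21 ± 0.16, adjusted p = 0.253), and passed only without glutamine replicate 1 (adjusted p = 0.0443). ATG19 stood above ATG34 in each library, with density ratios of 3.57 and 2.97 in proline, against 2.57 and 2.27 in glutamine. ATG21, a PI3P-binding protein that recruits Atg8 enzymes, had 364 and 291, against 251 and 222 (0.41 ± 0.15, adjusted p = 0.0329; TMM -0.04); leaving out 4 of the 6 libraries in turn ended that call (adjusted p up to 0.182), without proline replicate 1, glutamine replicate 2 or either dal80Δ library. Of 7 Cvt cargo and partner genes 3 were higher and 1 lower in proline on the authors' scaling, and 0 higher and 4 lower after TMM. These shares of 42.9% and 14.3% stand beside 56.5% and 15.1% of all genes. After TMM 0% and 57.1% stand beside 33.9% and 29.8%. The 3 higher ones were LAP3, an aminopeptidase (0.71 ± 0.14, adjusted p = 0.00182; TMM 0.22), TRS85, a subunit of a tethering complex (0.75 ± 0.19, adjusted p = 0.00618; TMM 0.29), and SNX4, a sorting nexin that partners Atg20 (0.49 ± 0.14, adjusted p = 0.0121; TMM 0.04). Among those called lower on either scaling, the aminopeptidase APE1, listed as LAP4, had 1444 and 1639 in proline, against 1934 and 1728 in glutamine (-0.24 ± 0.14, adjusted p = 0.153; TMM -0.73, adjusted p = 0.00280), and the aminopeptidase APE4 had 798 and 925, against 1163 and 1106 (-0.39 ± 0.13, adjusted p = 0.0255; TMM -0.87).

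The 4 genes for selective removal of organelles were all higher in proline on the authors' scaling, and 3 of them after TMM and by edgeR. That is 100% beside 56.5% of all genes, then 75% beside 33.9% after TMM and 33.5% by edgeR. ATG33, a mitochondrial outer membrane protein used in mitophagy, had 1465 and 1503 scaled reads in gat1Δ proline, against 503 and 469 in gat1Δ glutamine. Replicates lay close together and the groups far apart, which gave the smallest adjusted p of the family (1.59 ± 0.13, adjusted p = 1.62e-05; TMM 1.09). ATG32, the mitophagy receptor, had 692 and 581, against 272 and 255 (1.16 ± 0.14, adjusted p = 0.000114; TMM 0.70). ATG11, the scaffold that gathers receptors and the kinase, had 867 and 723, against 315 and 312 (1.15 ± 0.14, adjusted p = 0.000124; TMM 0.71). In ATG26, a sterol glucosyltransferase that pexophagy needs in the yeast Komagataella phaffii, the values were 1258 and 858, against 611 and 581 (0.73 ± 0.18, adjusted p = 0.00502), and the change missed the threshold after TMM (0.27, adjusted p = 0.148).

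Further organelle receptors are listed without an ATG name. ATG39, the receptor for perinuclear endoplasmic reticulum, is listed as YLR312C and had 191 and 155 scaled reads in gat1Δ proline, against 28 and 22.8 in gat1Δ glutamine (1.92 ± 0.16, adjusted p = 1.64e-05; TMM 1.54). The groups were far apart. ATG36, the peroxisome receptor (YJL185C), and ATG40, the receptor for peripheral endoplasmic reticulum (YOR152C), overlapped between groups, at 0.24 ± 0.16 and 0.09 ± 0.23, and did not pass. ATG44, which acts in mitochondrial fission for mitophagy (YIL156W-B), was at -0.21 ± 0.19 and was lower only after TMM (-0.70, adjusted p = 0.0102). ATG41, a partner of Atg9 listed as ICY2, changed more than any member taken by name, with 13215 and 6798 in proline, against 1156 and 1022 in glutamine (3.11 ± 0.27, adjusted p = 2.11e-05; TMM 2.61). Over all 10 autophagy genes listed under other names (these 5, CIS1, YLR211C, YBR139W, VPS30 and SNX4) 6 were higher and 1, YBR139W, lower in proline on the authors' scaling, and 3 higher and 2 lower after TMM. On the authors' scaling 60% higher and 10% lower stand beside 56.5% and 15.1% of all genes. After TMM 30% and 20% stand beside 33.9% and 29.8%, so the higher shares were close to those of all genes.

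Leaving out 1 library at a time separated the calls. On the authors' scaling ATG1, ATG11, ATG12, ATG13, ATG16, ATG17, ATG20, ATG23, ATG26, ATG32 and ATG33 were called in all 6 such fits. The other 7 lost their call in at least 1 of them, and these 7, together with ATG26, are also the 8 that TMM did not call. Without proline replicate 1 the count of members called fell to 11, against 18 with all libraries.

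The second comparison set dal80Δ beside gat1Δ in glutamine. On both scalings and by edgeR 3 of the 28 ATG genes were higher in dal80Δ and 0 lower (10.7%, against 3.97% of all genes higher and 1.48% lower on the authors' scaling, 6.15% and 0.912% after TMM, and 6.9% and 1.2% by edgeR). DESeq2 also gave 3 and 0. The 3 genes were ATG22, ATG33 and ATG15. At an unadjusted p under 0.05 limma gave the same 3 genes and 0 lower, beside 1587 of 5594 tested genes in either direction. After TMM it gave ATG32 as well, beside 1227 of the 5594. At this threshold the share of members thus lay below that of all genes on both scalings. Every other step (the kinase complex, membrane supply, ATG14, conjugation and Cvt) had no call in either direction. At an unadjusted p under 0.05 limma found 0 genes there and edgeR 1, ATG2, beside 1266 of 5594 tested genes by edgeR. The median change of the 28 was 0.03 on the authors' scaling and 0.18 after TMM, beside -0.15 and -0.01 for all genes. On the authors' scaling the reads of both dal80Δ libraries lay above both gat1Δ libraries for 6 members (21.4%, against 17.4% of all genes). They lay below both for 4 (14.3%, against 46.4%).

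ATG22, the amino acid exporter, had 1675 and 1387 scaled reads in dal80Δ glutamine, against 732 and 829 in gat1Δ glutamine. The groups lay well apart, with a change of 0.94 ± 0.14 (adjusted p = 0.00694) and 1.09 after TMM. ATG33, the mitophagy protein, had 993 and 863 in dal80Δ, against 503 and 469 in gat1Δ (0.91 ± 0.13, adjusted p = 0.00457; TMM 1.07). ATG15, the lipase, had 491 and 505, against 327 and 325 (0.56 ± 0.13, adjusted p = 0.0402; TMM 0.71, adjusted p = 0.00638). Without dal80Δ replicate 1 all 3 missed the threshold on the authors' scaling, at adjusted p of 0.0834 for ATG22, 0.0623 for ATG33 and 0.242 for ATG15. ATG15 missed it too without dal80Δ replicate 2 (0.240) and without gat1Δ glutamine replicate 1 (0.109) or 2 (0.0809). The part that the difference in mating type transcripts plays in these values was not tested.

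Other genes of vacuolar breakdown and Cvt cargo are named here after their values were seen. They stand beside 3.97% of all genes called higher in dal80Δ on the authors' scaling and 6.15% after TMM. ATG42 (YBR139W) had 5034 and 4469.8 scaled reads in dal80Δ, against 2473 and 2247 in gat1Δ (1.00 ± 0.20, adjusted p = 0.0252). Of the 4 vacuolar hydrolases PEP4 (0.90 ± 0.15), PRC1 (0.86 ± 0.20) and PRB1 (0.85 ± 0.13), a serine protease, were higher, and CPS1 was at 0.61 ± 0.16 (adjusted p = 0.0645; TMM 0.77, adjusted p = 0.0462). Higher hydrolases thus made up 75% on the authors' scaling and 100% after TMM. The Cvt cargo genes APE1, listed as LAP4 (0.65 ± 0.14, adjusted p = 0.0345), and AMS1, the α-mannosidase (0.80 ± 0.18, adjusted p = 0.0400), were higher, and APE4 was at 0.46 ± 0.13 (adjusted p = 0.0757; TMM 0.62, adjusted p = 0.0307). Among the 7 Cvt cargo and partner genes 2 were thus higher (28.6%), and 3 after TMM (42.9%). LAP3 (0.04 ± 0.14), VAC8 (0.18 ± 0.14), TRS85 (-0.31 ± 0.19) and SNX4 (-0.28 ± 0.14) did not pass. The cargo receptors ATG19 and ATG34 were at 0.11 ± 0.20 and 0.13 ± 0.16 and did not pass. ATG39 (YLR312C) had 60.3 and 76.0 in dal80Δ, against 28 and 22.8 in gat1Δ, without overlap (0.85 ± 0.16, adjusted p = 0.0173). With ATG42 it made up the 2 of 10 genes under other names called higher (20%) on both scalings.

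No gene of the starting machinery passed between the strains. ATG1 had 432 and 422 scaled reads in dal80Δ, against 434 and 371 in gat1Δ (0.08 ± 0.30, adjusted p = 0.876), and ATG13 had 207 and 249.7, against 326 and 202 (-0.15 ± 0.21, adjusted p = 0.654). Both sets overlapped. ATG8 had 86 and 104, against 110.3 and 59.0 (0.20 ± 0.24, adjusted p = 0.591). ATG32, the mitophagy receptor, had 327 and 301, against 272 and 255, with both dal80Δ libraries above both gat1Δ libraries, and did not pass (0.22 ± 0.14, adjusted p = 0.307). On the authors' scaling ATG5, ATG16, ATG21 and ATG26 were the 4 members whose dal80Δ libraries lay below both gat1Δ libraries. Their changes were -0.33 ± 0.15, -0.30 ± 0.15, -0.34 ± 0.15 and -0.15 ± 0.18, none of which passed. After TMM they were -0.19, -0.23, -0.21 and -0.01, and again none passed.

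Levels per kb spanned a wide range, with ATG33 and ATG27 in the first 2 places in each of the 3 groups. In gat1Δ proline ATG33 led with a mean of 2499 scaled reads per kb, apart from ATG27 (969) and ATG1 (960), which overlapped each other. In dal80Δ the order was ATG33 (1562), ATG27 (1149) and ATG22 (965), each apart from the next. In gat1Δ glutamine ATG27 led (1126), then ATG33 (818) and ATG22 (492), again each apart from the next. ATG1 was the third in proline, but the tenth in dal80Δ and the twelfth in gat1Δ glutamine, where it overlapped its neighbours ATG21 (159) and ATG34 (135). The lowest member was ATG14 in gat1Δ proline (41.5) and gat1Δ glutamine (22.6) and ATG16 in dal80Δ (22.6). In proline ATG14 lay apart from the next member, but in gat1Δ glutamine it overlapped ATG16, and in dal80Δ ATG16 overlapped ATG23.

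The make-up of the family by step changes with no library scaling, since each share is taken within a library. The kinase complex took 18.2% and 11.6% of the summed ATG density in gat1Δ proline, 4.91% and 5.76% in dal80Δ, and 7.59% and 5.99% in gat1Δ glutamine. Both proline libraries lay above all others, and ATG1 alone made up 12.4% and 6.37% of the total there, against 2.61% and 2.53% in gat1Δ glutamine. Selective steps took 32.8% and 35.5% in proline, 29.4% and 26.8% in dal80Δ, and 20.7% and 22% in gat1Δ glutamine, most of it ATG33. Breakdown and efflux took 6.60% and 7.58% in proline, 19.1% and 17.1% in dal80Δ, and 10.9% and 13.4% in gat1Δ glutamine, so that the 3 groups did not overlap. The Cvt share was 21.2% and 21.9%, 26% and 26.8%, and 31.6% and 33.2% in the same groups, also without overlap. ATG27 alone made up 9.29% and 10.1%, 16.3% and 16.1%, and 17.3% and 21.7% of the total in these groups. A lower share is relative to the other steps and is not in itself a lower level of the Cvt genes. All ATG reads together were 0.133% and 0.106% of gene reads in proline, 0.0786% and 0.0771% in dal80Δ, and 0.0706% and 0.0625% in gat1Δ glutamine. These shares are descriptions of 2 libraries per group and were given no test.

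**Figure D4:**
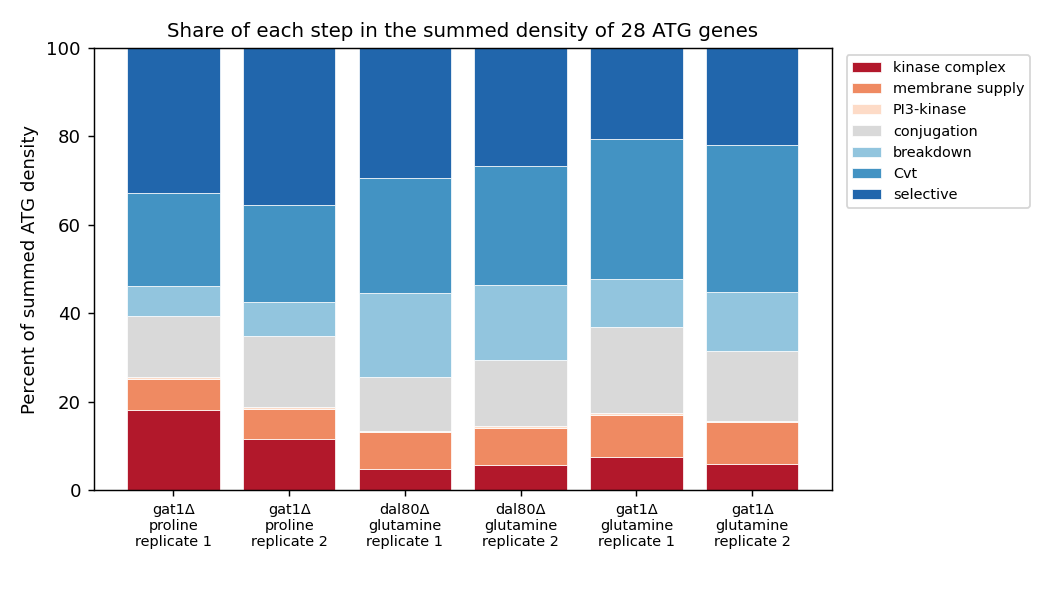
Share of each step in the summed density of the 28 ATG genes, in percent, for each library, with gat1Δ proline, dal80Δ glutamine and gat1Δ glutamine in this order and colours for the 7 steps. The kinase complex takes 18.2% and 11.6% in proline, against 7.59% and 5.99% in gat1Δ glutamine, and breakdown takes 19.1% and 17.1% in dal80Δ.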

How the data were processed

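Total RNA extracted with hot phenol was depleted of rRNA, made into stranded libraries from 125 ng and sequenced as pairs of 2 × 50 nt, per the labels' protocols. TopHat and build R64 are named in the submitters' processing notes, and no label or header names the counter or its handling of strand and multiple hits. Per feature the authors deposited read counts and a density signal, per the file headers. The count of gat1Δ proline replicate 1 was whole (11822090 over genes). The deposited read values of the other libraries were a scaled signal, and whole reads were recovered for 100% of positive values within 0.01 reads. The density signal was the scaled count over feature length. Only the read count and density columns of the 6 libraries were used.

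After a filter of 10 or more scaled reads in 2 or more libraries, 5594 of 5795 genes, among them all 28 ATG genes, entered limma 3.58.1 (R 4.3.3) as log2(density per base + 0.0229), the pseudocount being the 5th percentile of positive densities, which understates changes of low genes. All 6 libraries entered with the group as factor (3 residual degrees of freedom), with Benjamini-Hochberg adjustment over all genes and a threshold of 0.05. Because the values were not whole counts, limma was the main test, and the quasi-likelihood test of edgeR 4.0.16 and DESeq2 1.42.0 were run on recovered reads. Other alternatives were TMM and RLE scaling, filters, pseudocounts, a threshold of 0.01, only 2 groups, a replicate block and each library left out. The fit was tested on simulated data. Replicates differed by more than sampling noise (chi-square per degree of freedom 41.6 to 70.8; Pearson r across genes 0.989 to 0.995). That cultures were separate rests on the labels. The ± values are SE of the limma fit, from its moderated spread between replicate libraries. The limit behind a count of 0 (3 reads) covers counting error only.

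Members, gene lists, motifs and tests were chosen with earlier results of these data known. Every member is named; of other lists, up to 3 genes per comparison with the smallest adjusted p and any called gene against the list's median were named, plus ATG genes under other names, Cvt cargo, hydrolases, UME6, YKT6 and YPT7, chosen after their values were seen. Names such as ATG31 for CIS1 came from RefSeq symbols of R64, and coordinates of all 28 members matched it. VPS18 was not matched and is not analysed here, and 1 gene that the naming rule picks among the upstream kinases is not reported here.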

Additional observations from a re-analysis of the deposited data

How the results depend on the processing

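For proline against glutamine 18 members were called. The count was 10 with DESeq2 (7 higher, 3 lower), 11 at an adjusted p of 0.01 and 11 to 20 with 1 library left out; it was 13 with TMM or RLE scaling, 12 with edgeR, 15 with only the 2 groups, 16 with at least 50 scaled reads and 18 under other filters and pseudocounts. The filter of 50 scaled reads dropped ATG10, ATG14 and ATG16, so that ATG14 and ATG16 were untested there, and the calls of the 25 members left were the same. The median change of 0.50 was 0.084 with TMM, 0.040 with RLE and 0.34 with a pseudocount 4 times larger. Among genes called under either setting, sign turned for these, in the order TMM, RLE, edgeR and DESeq2: ATG2 at -0.38, -0.42, -0.45 and -0.51; ATG4 at -0.077, -0.12, -0.10 and -0.15; ATG5 at -0.053, -0.10, -0.052 and -0.11; ATG15 at -0.081, -0.13, -0.094 and -0.15; ATG21 at -0.035, -0.082, -0.040 and -0.093. ATG18 turned to -0.029 with RLE and -0.031 with DESeq2. Another 6 genes called under neither turned sign with each of these 4, and up to 4 did with 1 library left out. The cause was not tested. For dal80Δ against gat1Δ 3 members were called, 0 to 3 with 1 library left out and 2 at an adjusted p of 0.01; the median of 0.03 was 0.18 with TMM. There 3 members turned sign with each of TMM, RLE, edgeR and DESeq2 and up to 8 with 1 library left out, all of them called under neither setting. In fits with 1 library left out, the lone library of a group is assumed to vary like the other groups.

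Replicate numbers are shared between groups without a stated shared batch. Deviations of same-numbered libraries correlated at 0.00984 between gat1Δ proline and gat1Δ glutamine and at -0.250 between dal80Δ and gat1Δ glutamine, so the numbers were not taken as pairs. With the replicate number as a block 18 members were called for proline and 2 for dal80Δ, ATG15 missing the threshold (adjusted p = 0.0652).

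Depth limits ATG10, ATG14 and ATG16, the genes with the fewest reads, and 2 libraries per group limit every comparison. For ATG8 a change was not detectable with these replicates.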

Other observations

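Other gene lists around the ATG family are read beside all tested genes, of which 56.5% were called higher and 15.1% lower in proline on the authors' scaling and 33.9% and 29.8% after TMM, with medians of 0.50 and 0.06. Of 9 genes for fusion of autophagosomes with the vacuole 6 were higher in gat1Δ proline than in gat1Δ glutamine on the authors' scaling, and 4 higher and 1 lower after TMM, or 66.7% higher, and 44.4% higher and 11.1% lower, with medians of 0.49 and 0.08, close to those of all genes. CCZ1, part of the exchange factor of the Rab protein Ypt7, had 599 and 423 scaled reads in proline, against 172 and 179 in glutamine (1.30 ± 0.17, adjusted p = 0.000178). The SNARE gene VAM3 (1.19 ± 0.15) and the HOPS tether gene VPS41 (1.37 ± 0.20) rose too, without overlap between groups. YKT6, another SNARE gene, did not pass on the authors' scaling and was lower after TMM (-0.58, adjusted p = 0.00445). For dal80Δ against gat1Δ limma and edgeR called 0 of the 9. Of all genes limma called 3.97% higher and 1.48% lower, and edgeR 6.9% and 1.2%. At an unadjusted p under 0.05 limma gave 2 of the 9 (YPT7 and YKT6), beside 1587 of 5594 tested genes.

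Of 12 upstream kinase genes 8 were higher and 3 lower in proline, and 3 higher and 3 lower after TMM, or 66.7% and 25%, and 25% and 25%, with medians of 0.52 and 0.05. Genes of protein kinase A, which restrains autophagy, went both ways. TPK2 fell to 208 and 247 scaled reads in proline, against 688 and 456 in glutamine (-1.21 ± 0.19, adjusted p = 0.000460), and the regulatory subunit BCY1 (-0.60 ± 0.15) fell, while TPK3 rose (0.99 ± 0.13, adjusted p = 0.000167). TCO89, a subunit of TOR complex 1, rose as well (0.99 ± 0.14). For dal80Δ against gat1Δ limma and edgeR called 0 of the 12, beside the shares of all genes given above (3.97% higher and 1.48% lower by limma). At an unadjusted p under 0.05 limma gave 2 of the 12 (TPK3 and BCY1), beside 1587 of 5594 tested genes.

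Of 12 regulators of ATG transcripts 7 were higher and 0 lower in proline, and 6 higher and 2 lower after TMM, or 58.3% higher, and 50% higher and 16.7% lower, with medians of 0.71 and 0.27. On the authors' scaling the higher share was close to that of all genes. RPH1, a repressor of ATG genes, had 1835 and 1702 scaled reads in proline, against 463 and 447 in glutamine (1.84 ± 0.13, adjusted p = 6.87e-06). GCN4, the activator of amino acid synthesis, had 39580.0 and 36783, against 8855 and 7663 (2.21 ± 0.16, adjusted p = 9.72e-06), and the GATA activator GLN3 had 2795 and 1698, against 469 and 383 (2.23 ± 0.22, adjusted p = 3.78e-05). UME6 was at 0.48 ± 0.13 (adjusted p = 0.00968) and at 0.08 after TMM. For dal80Δ against gat1Δ 1 of the 12 was higher, or 8.33%, against 3.97% of all genes. It was the stress activator gene MSN4, with 1089 and 1116, against 665 and 629 (0.73 ± 0.13, adjusted p = 0.0124).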
